A study of Mus musculus with 7 samples.

Results

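The genes described are 32 components of the smooth muscle contractile apparatus and of its anchorage to membrane and matrix, listed by symbol, measured in whole testis of mice with and without Phf13, the gene of a chromatin-binding protein with a PHD finger. All 32 were found among the 18194 genes that the arrays represent by a probe set with a single symbol, and each is given by its probe set of highest mean signal. The groups are testes of Phf13 knockout mice (3 arrays, knockout 1 to 3) and of wild type mice (4 arrays, wild type 1 to 4), all aged 15 to 20 weeks. The strain, how the Phf13 allele was made and whether each array came from a separate animal are not given in the sources used here. The p-values therefore describe how these arrays scatter, and that scatter may be technical. Values are log2 signals, and differences are knockout minus wild type on that scale.

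In the testis, peritubular myoid cells wrap each seminiferous tubule in a thin contractile sheath that squeezes sperm and fluid along. Vascular smooth muscle, and the smooth muscle coat of the epididymal duct that receives the sperm, use the same machinery. Calcium activates myosin light chain kinase, the phosphorylated light chain lets smooth muscle myosin pull on actin filaments, and a myosin phosphatase reverses this. Serum response factor with its myocardin-family partners drives many of these genes through a DNA element called the CArG box.

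As a description of the promoters, the 250 bases before each gene's start were searched in the RefSeq promoter table of the mouse GRCm38.p6 build, which held 29 starts of 26 of the 32 genes. The box was taken as CC, a run of 6 A or T bases, and GG, and a CArG-like box as the same with up to 1 G or C inside the run. Both read alike on either strand, and every box is also counted as CArG-like. The 5 genes shown are those with a box in this window and are shown so that the boxes can be read. Capitals mark the boxes, and each sequence runs 5′ to 3′ on the gene's own strand.
Myl9 (chr2:156775273-156775404, plus strand): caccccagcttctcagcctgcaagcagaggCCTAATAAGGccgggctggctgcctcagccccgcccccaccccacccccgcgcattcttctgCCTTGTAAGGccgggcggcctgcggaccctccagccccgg
Cnn2 (chr10:79988514-79988583, plus strand): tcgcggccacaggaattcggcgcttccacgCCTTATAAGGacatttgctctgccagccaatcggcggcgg
Acta2 (chr19:34255374-34255487, minus strand): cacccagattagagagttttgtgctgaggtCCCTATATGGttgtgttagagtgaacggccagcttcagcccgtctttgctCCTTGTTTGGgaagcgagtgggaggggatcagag
Myl12a (chr17:71002534-71002581, minus strand): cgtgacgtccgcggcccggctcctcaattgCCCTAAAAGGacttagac
Myl6 (chr10:128493020-128493089, minus strand): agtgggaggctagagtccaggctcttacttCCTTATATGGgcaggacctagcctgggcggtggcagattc

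Myl9 has a strict box that begins 161 bases before its start and a CArG-like box at 99. Cnn2 has a strict box at 56 and Myl6, at one of its starts, a strict box at 50. Acta2 has CArG-like boxes at 84 and 34 bases before its start, and Myl12a has one at 18. A strict box was thus found at 3 of the 29 starts, against 1.47% of all 32851 starts, and a box of either kind at 5 of 29, against 8.59%. Of the 5 genes with a box 4 rose in knockout testis (Myl6 did not pass). Of the 21 with a start in the table but no box 10 rose, Mylk, Cald1 and Zyx among them. Over all genes, with or without a box, 9.07% rose. Actg2, Tagln, Myh11, Pdgfrb, Aoc3 and Itga7 had no start there, so they were not searched, and they did not pass. These are matches of letters, the files hold no measure of binding, and a relation between box and change was not tested.

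The labels fit the deleted gene: Phf13 read 6.04, 5.83 and 5.71 in the knockout arrays and 8.54 to 8.73 in the wild type arrays, a log2 fold change of −2.78 (limma adjusted p = 8.76e-06). Across all genes, 16.1% passed limma's adjusted p of 0.05, 9.07% higher and 7.05% lower in knockout. Counts of members, and of every other list below, have to be read against that large background. The median log2 fold change of all genes was −0.05. One array stood apart: knockout 2 carried transcripts of the epididymis. Of 16 measured epididymis genes, a list written after the values were seen, 9 were highest in knockout 2 and lay more than 1 log2 unit above all 6 other arrays, and wild type 3 was the next highest array for each of them. Spink8, an epididymal protease inhibitor gene, had signals of 4.05, 10.54 and 4.16 in knockout 1 to 3 and of 3.92, 3.70, 7.94 and 4.28 in wild type 1 to 4. The list's summed linear signal ran from 297.6 to 6125 in knockout and from 317.4 to 1138 in wild type arrays. The epididymis markers Gpx5, Lcn5 and Lcn8 were not raised in knockout 2 (3.79, 3.56 and 4.26). Added lists of duct epithelium (7 genes measured) and fat (4 measured) were mixed in that array. Krt18 read 6.21 and Fabp4 8.43 in knockout 2, against 3.34 to 4.29 and 5.22 to 7.34 in the other arrays. Epcam read 8.50 there, within the 8.19 to 9.14 of the others. For members and other named genes, calls lost without knockout 2 are given beside the result.

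Most contractile genes had higher signals in knockout testis, but unevenly. Of the 32 members, 14 rose, 1 fell (Tln1) and 17 did not pass, where the background is 9.07% higher and 7.05% lower. The median log2 fold change was 0.29, and 25 members had a positive value. The arrays of the genotypes were fully separate for 18 members, 16 higher and 2 lower in knockout, where 28% of all genes were, 12.8% higher and 15.2% lower. Of 17 members above the median signal of all genes 11 rose, where 13.5% of such genes did, and of 15 dimmer members 3 rose, where 4.6% did. Without knockout 2, 10 members rose, 1 fell and the median was 0.24, where 7.09% of all genes rose. In bulk tissue, more cells of a type and more RNA per cell cannot be told apart.

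**Figure D1:**
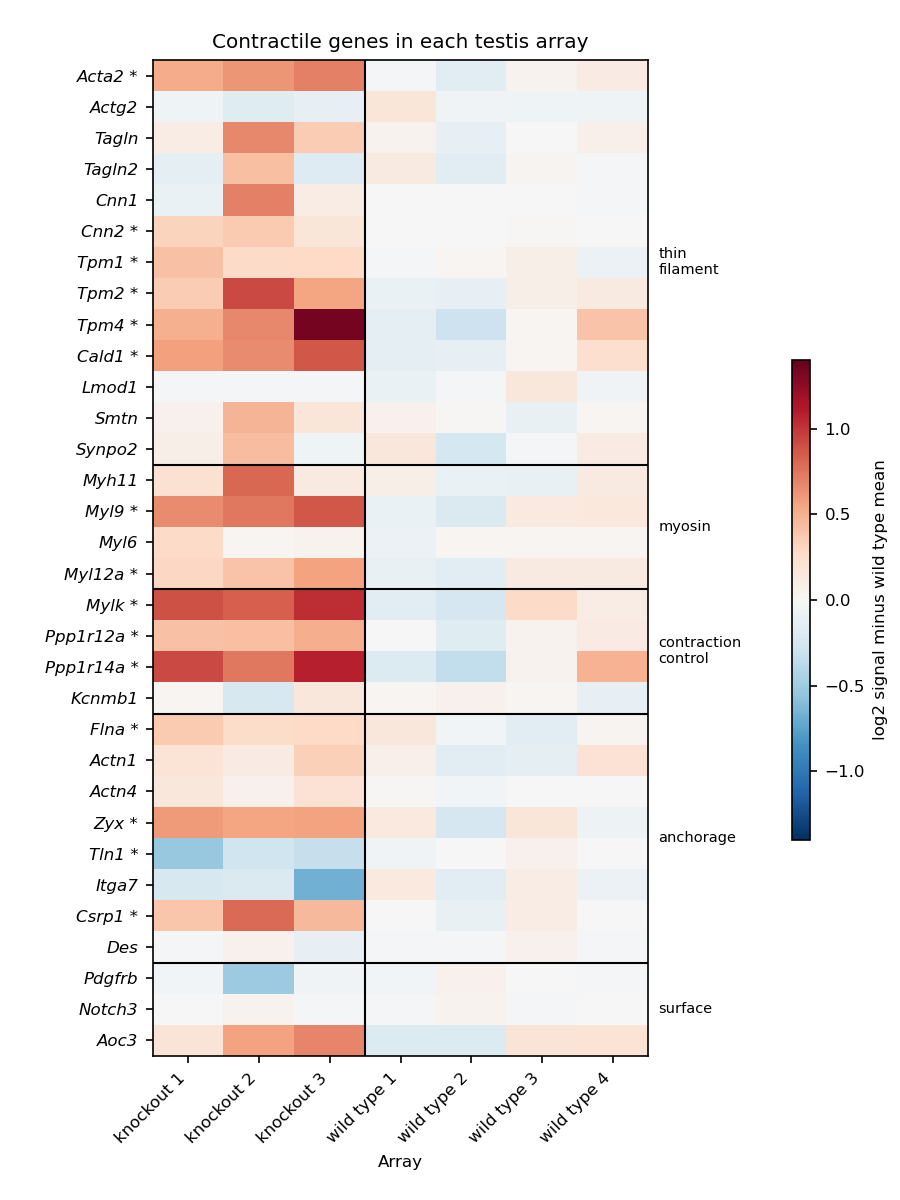
Log2 signal of each of the 32 members (rows, grouped by role) in each of the 7 arrays (columns), minus the member's wild type mean; asterisks mark members with a limma adjusted p under 0.05. Rows such as Mylk, Myl9, Acta2 and Cald1 are red in all 3 knockout arrays, while Cnn1, Myh11, Smtn and Synpo2 are reddest in knockout 2.

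The genes that control contraction had the highest median of the role groups (0.68). Of these 4 genes 3 rose and 0 fell, where 9.07% of all genes rose and 7.05% fell. Mylk, the calcium-calmodulin activated kinase that switches on smooth muscle myosin, had signals of 8.66, 8.61 and 8.81 in knockout 1 to 3 and of 7.63, 7.54, 8.04 and 7.88 in wild type 1 to 4. The lowest knockout array lay above the highest wild type array, and the knockout arrays were close together. Mylk rose by 0.92 (SE 0.12, 1.89-fold, limma adjusted p = 0.0116). A separate Mylk probe set gave 0.88 (SE 0.11), and a dimmer one 0.19.

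Ppp1r14a, which encodes CPI-17, an inhibitor of myosin phosphatase, read 6.74, 6.56 and 6.91 in knockout and 5.63, 5.47, 5.87 and 6.30 in wild type. Its wild type arrays were more scattered than its knockout arrays, with wild type 4 the highest, yet the groups did not overlap. The rise was 0.92 (SE 0.18, limma adjusted p = 0.0181). Ppp1r12a, the targeting subunit of the same phosphatase, read 8.56, 8.57 and 8.66 in knockout and 8.15, 7.98, 8.20 and 8.27 in wild type, a smaller rise of 0.45 (SE 0.08, limma adjusted p = 0.0140). Genes on opposite sides of this switch, the kinase and a phosphatase subunit, were both higher. Of 3 other Ppp1r12a probe sets 1 passed (0.37), and the others gave 0.13 and 0.32. Kcnmb1, the smooth muscle subunit of the calcium-activated potassium channel, differed by −0.01 (95% confidence interval −0.23 to 0.20) from signals of 3.40 to 3.78, a low range that was not shown to lie above background.

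Among the myosin subunits, the regulatory light chains rose and the heavy chain was led by knockout 2. Myl9, the smooth muscle regulatory light chain on which Mylk acts, read 9.25, 9.33 and 9.46 in knockout and 8.50, 8.39, 8.73 and 8.74 in wild type. All 3 knockout arrays were well above all 4 wild type arrays, and the rise was 0.76 (SE 0.10, 1.69-fold, limma adjusted p = 0.0116). Myl12a, a broadly expressed regulatory light chain, read 9.14, 9.25 and 9.42 against 8.75, 8.70, 8.98 and 8.98, a rise of 0.42 (SE 0.10, limma adjusted p = 0.0289). Its knockout 1 and the highest wild type arrays were near each other without overlap, and a second, dimmer Myl12a probe set gave 0.01. Without knockout 2 the rise of Myl12a did not pass (limma adjusted p = 0.0586).

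Myh11, the smooth muscle myosin heavy chain and among the most restricted markers of the lineage, read 6.54, 7.13 and 6.45 in knockout and 6.41, 6.23, 6.22 and 6.45 in wild type. Knockout 2 stood 0.59 above the next knockout array, and knockout 3 equalled the highest wild type array. It differed by 0.38 (SE 0.16, limma adjusted p = 0.130), and by 0.17 without knockout 2. The essential light chain Myl6, shared by muscle and non-muscle cells, read 5.28, 5.04 and 5.07 against 4.94, 5.04, 5.05 and 5.04. The groups overlapped, with a log2 fold change of 0.11 (SE 0.07). This probe set was dim, at percentile 31.3 of gene signals, and was not shown to lie above background.

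**Figure D2:**
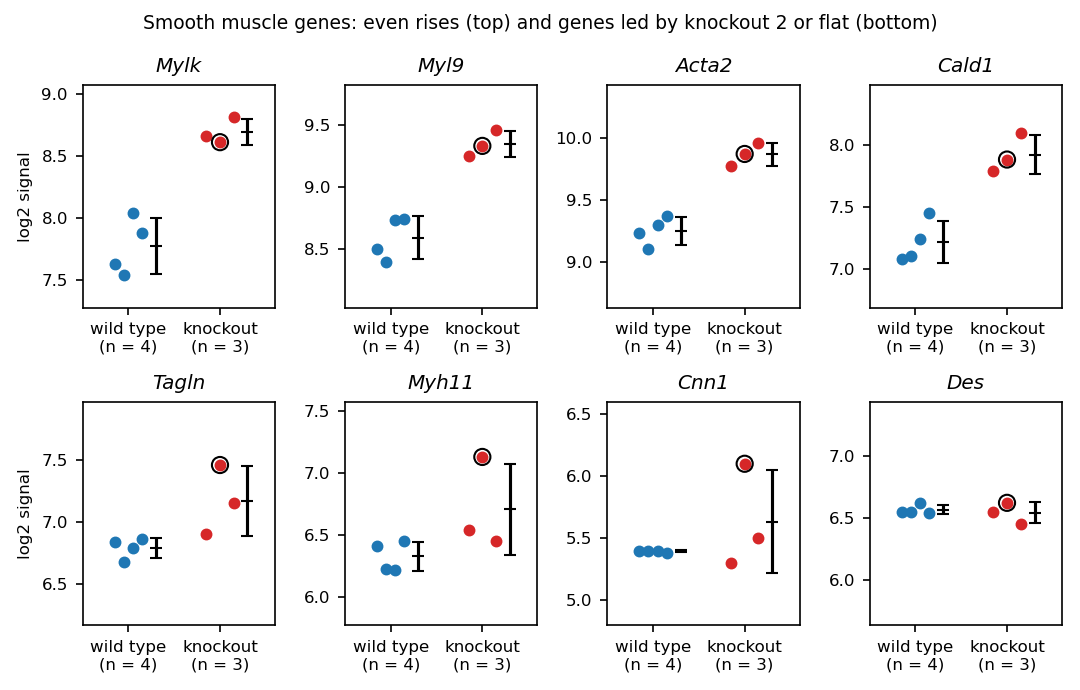
Log2 signal of 8 members in the 4 wild type (blue) and 3 knockout (red) arrays, each panel spanning the same height; black circles mark knockout 2 and bars give the mean ± SD. Mylk, Myl9, Acta2 and Cald1 do not overlap between groups; in Myh11 and Cnn1 knockout 2 alone lies clearly above wild type, and Des reads 6.45 to 6.62 throughout.

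Of 13 thin filament genes, 6 rose and 0 fell, where 9.07% of all genes rose and 7.05% fell. Acta2, smooth muscle alpha actin and the usual stain for peritubular myoid cells, read 9.77, 9.87 and 9.96 in knockout and 9.23, 9.10, 9.30 and 9.37 in wild type. The groups did not overlap and the knockout values were evenly spread, with a rise of 0.62 (SE 0.08, 1.53-fold, limma adjusted p = 0.0116). This probe set carries the suffix Affymetrix gives to sets that can match several transcripts, and actin genes are close copies of each other, so its reading may include other actins. Both other Acta2 probe sets were dim, with wild type signals of 3.06 or less, and gave −0.03 and 0.10. With the mean of all its probe sets Acta2 did not pass (0.23, limma adjusted p = 0.0978), and Tpm2, Myl12a and Tln1 were lost in the same way.

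Actg2, smooth muscle gamma actin, did not follow Acta2: it read 9.80, 9.69 and 9.74 in knockout and 10.03, 9.81, 9.80 and 9.80 in wild type. Wild type 1 was its highest array and the others lay close together. Its difference was −0.12 (95% confidence interval −0.29 to 0.06, limma adjusted p = 0.313), an interval that does not reach the Acta2 value of 0.62. The wild type mean of Actg2 (9.86) lay above that of Acta2 (9.25). Which testis cells give the Actg2 signal, and whether they are those that give the Acta2 signal, was not tested.

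Cald1, caldesmon, which holds actin back from myosin in smooth muscle and has a non-muscle form, read 7.79, 7.88 and 8.09 in knockout and 7.08, 7.10, 7.24 and 7.45 in wild type. The groups were clear of each other, and the rise was 0.70 (SE 0.11, limma adjusted p = 0.0120), with 0.70 (SE 0.12) from another probe set; the 3 remaining sets gave 0.26, 0.01 and −0.05. Tropomyosins, which lie along the actin filament, rose in all 3 members measured. Tpm2, the form of smooth and striated muscle, read 7.80, 8.36 and 7.99 against 7.35, 7.32, 7.52 and 7.57, a rise of 0.61 (SE 0.13, limma adjusted p = 0.0215). Knockout 2 was its highest array, and without it the rise was 0.46 (limma adjusted p = 0.0333).

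Tpm1 read 7.41, 7.26 and 7.28 in knockout and 6.97, 7.03, 7.08 and 6.91 in wild type, a rise of 0.32 (SE 0.07, limma adjusted p = 0.0218), while 3 dimmer probe sets gave 0.56, 0.16 and −0.02. Tpm4, a tropomyosin of the non-muscle cytoskeleton, read 6.74, 6.92 and 7.58 against 6.11, 5.95, 6.27 and 6.64. Knockout 3 stood far above the other knockout arrays and wild type 4 above the other wild type arrays, so its rise of 0.84 (SE 0.22, limma adjusted p = 0.0368) was the least precise of those that passed. Without knockout 2 its value was 0.92 (limma adjusted p = 0.0606).

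The calponins and transgelins, small actin-binding proteins, were mixed, and Cnn2 alone of the 4 rose. Cnn1, basic calponin and a marker of differentiated smooth muscle, read 5.30, 6.10 and 5.50 in knockout and 5.40, 5.40, 5.40 and 5.38 in wild type. Knockout 1 lay below every wild type array and knockout 2 far above them, and the difference of 0.24 (SE 0.16, limma adjusted p = 0.336) became 0.01 without knockout 2. Cnn2, the broadly expressed calponin, read 6.49, 6.54 and 6.35 against 6.17, 6.18, 6.19 and 6.17, a small rise of 0.28 (SE 0.06, limma adjusted p = 0.0243) from very even wild type values. Without knockout 2 it was 0.24 (limma adjusted p = 0.0537).

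Tagln, transgelin or SM22 alpha, read 6.90, 7.46 and 7.15 in knockout and 6.84, 6.68, 6.79 and 6.86 in wild type. The groups did not overlap, but knockout 1 was close to the highest wild type arrays, and the difference of 0.38 (SE 0.12) did not pass (limma adjusted p = 0.0691). Without knockout 2 it was 0.23. Tagln2, its non-muscle relative, read 5.58, 6.14 and 5.53 against 5.84, 5.57, 5.75 and 5.70; only knockout 2 of the knockout arrays was above the wild type range, and the log2 fold change of 0.04 became −0.16 without it.

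The remaining thin filament genes did not pass. Smtn (smoothelin, of contractile smooth muscle) differed by 0.24 (SE 0.10), Synpo2 (synaptopodin 2, an actin-bundling protein) by 0.15 (SE 0.14) and Lmod1 (leiomodin, an actin nucleator of smooth muscle) by −0.02 (SE 0.07). Smtn and Synpo2 were highest in knockout 2, at 5.35 and 4.12, and without it their values were 0.12 and 0.01. The 3 genes read between 3.44 and 5.71, under the median gene mean of 6.33.

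Smooth muscle forms were set against their broadly expressed relatives within each array, for 4 pairs. Myl9 minus Myl12a was 0.11, 0.08 and 0.04 in knockout and −0.25, −0.31, −0.25 and −0.24 in wild type, a difference of 0.34 between the means. Tagln minus Tagln2 was 1.32, 1.32 and 1.62 against 1.00, 1.11, 1.04 and 1.16, also a difference of 0.34. In these pairs no knockout array overlapped a wild type array, and Tagln kept its margin over Tagln2 in knockout 2, where both were high. In the exact two-sided permutation test each gave p = 0.0286, the smallest that 35 divisions allow. After Benjamini-Hochberg adjustment over the 4 pairs each permutation p was 0.0571, which misses the threshold. A pair at the smallest p can pass only if most of the 4 pairs also reach it, so the miss says little about these pairs. Cnn1 minus Cnn2 differed by −0.04 (adjusted p = 0.6, exact permutation) and Tpm2 minus Tpm4 by −0.23 (adjusted p = 0.6, exact permutation), so the 4 differences had both signs.

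**Figure D3:**
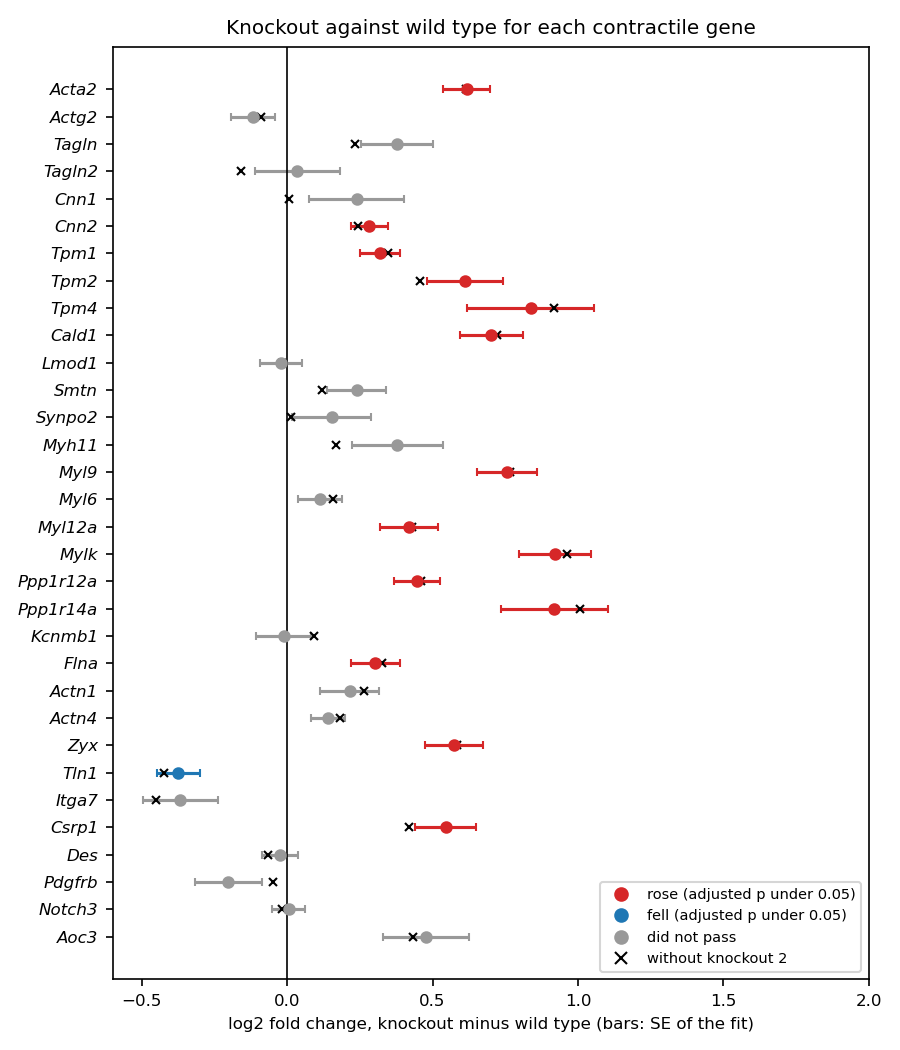
Log2 fold change, knockout minus wild type, of the 32 members with the standard error of the limma fit (points and bars) and without knockout 2 (crosses); red rose, blue fell, grey did not pass. The crosses for Cnn1, Synpo2, Tagln2 and Myh11 lie at 0.01, 0.01, −0.16 and 0.17, far left of their points, while those of Mylk, Myl9, Acta2 and Cald1 stay within their bars.

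Of 8 genes that anchor filaments to membrane, matrix and dense bodies, 3 rose, 1 fell and 4 did not pass. Over all genes 9.07% rose and 7.05% fell, and the 1 fall, Tln1, is uncertain, as described below. Zyx, zyxin, a focal adhesion protein that responds to tension, read 7.61, 7.57 and 7.58 in knockout and 7.15, 6.78, 7.18 and 6.94 in wild type. Its knockout arrays were nearly equal and all above wild type, with a rise of 0.57 (SE 0.10, limma adjusted p = 0.0138). Csrp1, a LIM protein of smooth muscle and a partner of serum response factor, read 6.92, 7.33 and 6.99 against 6.53, 6.43, 6.64 and 6.54, a rise of 0.55 (SE 0.10, limma adjusted p = 0.0163). Knockout 2 was again the highest, and without it the rise was 0.42 (limma adjusted p = 0.0253).

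Flna, filamin A, the X-linked cross-linker of actin, read 6.35, 6.24 and 6.26 in knockout and 6.14, 5.94, 5.82 and 6.02 in wild type. The groups were separate by 0.1, and the rise of 0.30 (SE 0.08, limma adjusted p = 0.0427) was lost when any of the 7 arrays was left out. The actinins, which bundle actin at adhesions and dense bodies, did not pass: Actn1 differed by 0.21 (SE 0.10) and Actn4 by 0.14 (SE 0.06).

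Tln1, talin, the link from integrin to actin, was the only member that fell by its chosen probe set, and its probe sets disagreed. That set read 9.08, 9.33 and 9.28 in knockout and 9.56, 9.60, 9.66 and 9.60 in wild type, a change of −0.38 (SE 0.07, limma adjusted p = 0.0175). A dimmer Tln1 probe set gave 0.23 (SE 0.08, adjusted p = 0.0958 by limma over all 34958 probe sets with a single symbol), and the mean of all Tln1 probe sets gave −0.04. The direction of Tln1 is therefore uncertain.

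Des, desmin, the intermediate filament of muscle cells, read 6.55, 6.62 and 6.45 in knockout and 6.55, 6.55, 6.62 and 6.54 in wild type. The groups lay on top of each other, and the 95% confidence interval of the log2 fold change, −0.17 to 0.12, lies below the values of the 14 genes that rose. Itga7, the laminin-binding integrin of muscle, read 5.24, 5.27 and 4.79 against 5.60, 5.31, 5.57 and 5.39; the groups did not overlap, and its log2 fold change of −0.37 (SE 0.13) did not pass (limma adjusted p = 0.0870).

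The surface genes of mural cells did not pass either. Aoc3, the vascular adhesion protein and amine oxidase of smooth muscle, read 5.10, 5.48 and 5.60 in knockout and 4.73, 4.73, 5.10 and 5.11 in wild type. Knockout 1 lay within the wild type range, and the difference of 0.48 (SE 0.15) did not pass (limma adjusted p = 0.0614). Pdgfrb, the platelet-derived growth factor receptor of pericytes and smooth muscle, differed by −0.20 (SE 0.11), with knockout 2 the lowest array at 4.28 and the other 6 arrays between 4.74 and 4.85. A dimmer Pdgfrb probe set gave 0.34 (SE 0.25), the opposite sign. Notch3, the Notch receptor of arterial smooth muscle, read 3.36 to 3.44 in every array, too low to be shown above background. By limma 0 of these 3 passed, and 1 had an unadjusted p under 0.05.

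Knockout 2 was the highest knockout array for 13 of 32 members, where 33.1% of all genes had this order. It exceeded all 6 other arrays for 9 of 32 members (Tagln, Tagln2, Cnn1, Cnn2, Tpm2, Smtn, Synpo2, Myh11 and Csrp1), where 10.6% of all genes did, and by more than 0.25 for 8 of them, where 1.22% of all genes did. These are counts of a pattern noticed in the data. The 8 are all but Cnn2. Wild type 3, where epididymis transcripts were next highest, was above the other wild type arrays for 1 of the 8, Csrp1 (6.64 against 6.43 to 6.54), while Tagln read 6.79 and Myh11 6.22 there. The part of epididymal tissue in the knockout 2 values was not tested. Among the 14 genes that rose, the highest knockout array was knockout 3 for 8, knockout 2 for 3 and knockout 1 for 3; over all risen genes knockout 3 was highest for 61.0%. Wild type 2 was the lowest wild type array for 10 of the 14.

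**Figure D4:**
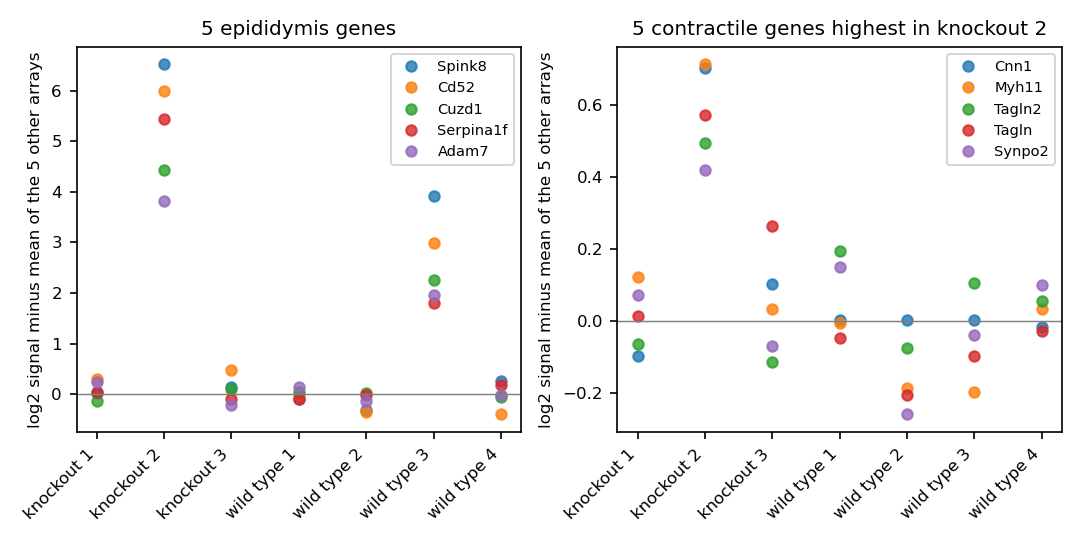
Log2 signal in each array minus the mean of knockout 1, knockout 3 and wild type 1, 2 and 4, for 5 epididymis genes (left) and 5 members that were highest in knockout 2 (right); the vertical scales differ. The epididymis genes are high in knockout 2 and, less so, in wild type 3, and the contractile genes are high in knockout 2 and lie at or within 0.2 of the baseline in wild type 3.

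Other genes of the contractile pathway, from lists written beside the members, were mixed. Of 12 transcriptional regulators of smooth muscle genes, 3 rose and 0 fell (median log2 fold change −0.02). Mrtfb, a myocardin-related coactivator of serum response factor, rose from 7.56 ± 0.09 (SD, n = 4) to 7.95 ± 0.11 (SD, n = 3), by 0.40 (SE 0.08). Tead1 rose by 0.33 and Gata4, which Sertoli and Leydig cells also express, by 0.39. Gata4 was lost without knockout 2 (limma adjusted p = 0.0577) and with the title-number block described further on (0.0539). Srf itself differed by −0.28 (limma adjusted p = 0.0864) and Myocd by −0.06. Mrtfa differed by −0.38, which did not pass (limma adjusted p = 0.0701) but did without knockout 2 (0.0425) and with that block (0.0388).

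Of 7 measured receptors and ligands of contraction, Avpr1a, the vasopressin receptor, rose by 0.60 (SE 0.13) and Adra1b, an alpha-adrenergic receptor, fell by 0.29, a call lost without knockout 2 (limma adjusted p = 0.112) and with the title-number block (0.0831). The oxytocin receptor gene Oxtr read 5.88, 6.53 and 6.73 in knockout and 5.88, 5.29, 5.77 and 5.82 in wild type; knockout 1 equalled wild type 1, and its log2 fold change of 0.69 did not pass (limma adjusted p = 0.0598).

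Of 10 other actomyosin genes, 4 rose and 0 fell (median 0.20). Cnn3, the acidic calponin, rose from 7.05 ± 0.22 (SD, n = 4) to 8.13 ± 0.40 (SD, n = 3), by 1.09 (SE 0.19, limma adjusted p = 0.0133), a larger value than that of any member. Tpm3 rose by 0.55 (SE 0.09), Myl12b by 0.35 and Svil, supervillin, by 0.26. Myl12b and Svil were lost without knockout 2 (limma adjusted p = 0.0586 and 0.0842) and with the title-number block (0.0507 and 0.0577). The cytoskeletal actins did not pass, with values of 0.15 for Actb and 0.02 for Actg1.

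Of 19 measured focal adhesion and dense plaque genes, 8 rose and 1 fell (median 0.10). Itgb1, the shared beta subunit of matrix integrins, rose by 0.59 (SE 0.08), Vcl, vinculin, by 0.53 (SE 0.08) and the LIM protein gene Pdlim5 by 0.55 (SE 0.09). Itga1, the collagen-binding integrin subunit, fell by 0.60 on the log2 scale (SE 0.08, limma adjusted p = 0.0115), with wild type arrays at 7.78 to 8.08 and knockout arrays at 7.33 to 7.40. Vim (0.83), Ilk (0.41), Pdlim3 (0.61), Fermt2 (0.62) and Lims1 (0.43) made up the other rises.

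Markers of neighbouring cells moved in the same arrays. Of 10 Sertoli cell markers 8 rose and 0 fell (median 0.67), with a summed linear signal of 7962 to 8727 in knockout and 4676 to 5894 in wild type. Rhox5 rose by 0.73 and Wt1 by 0.78. Of 5 measured Leydig cell markers 3 rose and 0 fell (median 0.61; summed 5445 to 6897 against 2920 to 4366), of 7 fibroblast genes 4 rose and 0 fell (median 0.66; summed 1580 to 1851 against 694.7 to 1070), and of 9 macrophage genes 4 rose and 0 fell (median 0.47; summed 2844 to 3317 against 2736 to 2993). With the title-number block the 4 macrophage rises were lost and 1 other macrophage gene passed, while 7 Sertoli, 3 Leydig and 4 fibroblast genes rose. The 32 members summed to 6578 to 7217 in knockout and 5182 to 5788 in wild type. Linear sums follow the brightest genes of a list. For macrophages this was Aif1 (10.80 to 11.17, log2 fold change −0.17, not passing) and for Sertoli cells Ctsl (11.60 to 12.43, log2 fold change 0.625). Several members, such as Cald1, Zyx and Myl12a, are also expressed outside smooth muscle, and the part of these cells in the contractile result was not tested.

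Among peritubular genes outside the contractile set, Ptch1, the Hedgehog receptor, rose by 0.77 (SE 0.14), and the other 5 measured did not pass. Of 10 endothelial, 7 pericyte and 12 striated muscle markers, limma called 0 in each list (1 striated muscle gene, Myh4, fell without knockout 2), and 0, 0 and 2 had an unadjusted p under 0.05. Their medians were 0.06, −0.01 and −0.02, but most of them were dim: 0, 1 and 0 had a mean signal above the median gene. Of 10 spermatid markers, which whole testis should hold in plenty, 0 rose and 3 fell (Spem1 −0.32, Crem −0.26, Tssk2 −0.22), and Prm1, a protamine gene, differed by −0.02. With the title-number block all 3 falls were lost (limma adjusted p = 0.0797, 0.0809 and 0.0788), and without knockout 2 only Crem still passed.

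By the numbers in their titles, whose meaning is not stated, the arrays form 3 sets that each hold both genotypes. The first set is knockout 1 and wild type 1, the second is knockout 2 with the wild type arrays 2 and 3, and the last is knockout 3 and wild type 4. Within them the median difference over the 32 members was 0.18, 0.48 and 0.22. All 14 risen genes were higher in knockout within each set. With the sets as a block 16 members passed, where 12.7% of all genes did and 7.71% rose: the 15 called genes and Aoc3 (limma adjusted p = 0.0357). For Mylk the within-set differences were 1.03, 0.82 and 0.93 and for Acta2 0.54, 0.67 and 0.59, while for Myh11 they were 0.13, 0.91 and 0.00 and for Cnn1 −0.10, 0.70 and 0.12.

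The calls rest on few arrays. With 1 array left out, Acta2, Myl9 and Mylk passed in all 7 runs and were the only members to pass without knockout 3, where 175 genes passed in all and 0.528% of all genes rose. Without wild type 1, 6 members passed, where 741 of all 18194 genes did. Without knockout 3 and wild type 4 together limma called 0 members. In that fit 17 members had an unadjusted p under 0.05, as did 4556 of all 18194 genes.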

How the data were processed

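Total RNA from whole testis was labelled as biotinylated cRNA from 2 ug and hybridised to Affymetrix arrays, per the labels' protocols. The authors deposited log2 signals for 45101 probe sets, 1 column per array. The submitters' processing notes list Affymetrix Expression Console 1.4.1; summarisation, background correction and normalization are not given in the sources used here. The log2 scale was read from the values (1.59 to 13.92; array medians 5.01 to 5.08). No normalization was added and no detection calls were used; the number of arrays limits the precision.

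Of the probe sets, 34958 had 1 gene symbol in the platform annotation, 932 several and 9211 none. Each of 18194 genes was given by its probe set of highest mean. Some list genes were matched by gene identifier.

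Knockout was set against wild type in limma (version 3.58.1, R 4.3.3; lmFit, then eBayes), with Benjamini-Hochberg adjustment over all genes and a threshold of 0.05. "Rose" and "fell" are used of genes past it. The fit was tested on made data with known changes. Lists are described by counts and medians. Members and lists were chosen with earlier results of these data known, and the epididymis list after the values were seen. Lists of duct epithelium and fat genes were added beside it. Named genes are all members, with array values for those past the threshold and for defining smooth muscle genes. Up to 4 genes of each other list are named by adjusted p. Srf, Mrtfa, Myocd, Oxtr, Actb, Actg1, Prm1, Myh4 and the other risen adhesion genes were added after their values were seen. So were Spink8, Gpx5, Lcn5, Lcn8, Krt18, Fabp4 and Epcam. Alternatives were other scalings, probe set choices, filters on dim genes, fit settings, blocks by replicate number and by title number, and arrays left out. The result of 1 further pathway list is not reported here.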

Additional observations from a re-analysis of the deposited data

Results flagged for a closer look

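In the 4 wild type arrays 1 array lay far from the other 3 by Dixon's ratio of gap to range for 5 of the 32 genes; chance alone flags about 1 group in 20. Actg2 read 10.03 in wild type 1 against 9.80 to 9.81 in the others. Myl6 read 4.94 in wild type 1 against 5.04 to 5.05, and Actn4 read 8.04 in wild type 2 against 8.09 to 8.10. Des read 6.62 in wild type 3 against 6.54 to 6.55. Cnn1 read 5.38 in wild type 4 against 5.40 in each other array, so the whole range was 0.02.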

How the results depend on the processing

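The count of 15 called members ran from 11 to 16 under other scalings, probe set rules, fit settings and filters on dim genes. In those fits 2732 to 3677 genes passed, of 18194 tested or, with dim genes left out, of 12126 and 9095. At an adjusted p of 0.1 the count was 18 members, where 4745 genes passed. With arrays centred on their medians 14 members passed, and of 3677 genes 1635 rose and 2042 fell, against 1651 and 1283 as reported; with only genes above the median signal the members' median was 0.45. Leaving out 1 array gave 3 to 14 members, 175 to 2574 genes and a median of 0.24 to 0.33. Genes passing fell to 175 when knockout 3 was left out, 741 for wild type 1, 996 for knockout 1 and 1364 for wild type 2. Without knockout 3 and wild type 4 together, limma called 0 members and 4 genes, with 17 members and 4556 of all 18194 genes at an unadjusted p under 0.05. Without knockout 2 and wild type 3, chosen after seeing the data, it called 9 members and 1643 genes. Tpm2 and Ppp1r14a, which passed without knockout 2 alone, were lost there (limma adjusted p = 0.0525 and 0.0602). No member past the threshold changed direction under any setting. With the mean of all probe sets 11 members passed, and Acta2 was lost (0.23, limma adjusted p = 0.0978). Leaving out 1 array moved Cnn1 minus Cnn2 from −0.24 to 0.14 and Tpm2 minus Tpm4 from −0.46 to 0.053; without knockout 2 and wild type 3 the former was −0.24. Where a value moved, the cause was not tested.

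Correlations between arrays were taken after each gene's genotype mean was subtracted. By these, replicate numbers did not pair the arrays (same-number values 0.18, 0.10 and −0.14). Knockout and wild type arrays of the same title-number set gave 0.18, 0.10, 0.16 and 0.32, and those of different sets −0.17 to 0.02. Deviations within a genotype cancel out for each gene, so positive values for some pairs lower others, and this contrast is partly built in. It is at most a hint from the data and not the design, since the number's meaning is not stated. With the replicate block 13 members and 2294 genes passed. Signal not shown above background limits dim genes such as Kcnmb1, Notch3, Synpo2 and Myl6.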
